A study of Mus musculus with 10 samples.

Results

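The genes described here are 9 markers of differentiated neurons (Tubb3, Rbfox3, Map2, Dcx, Neurod1, Snap25, Stmn2, Gad1 and Slc17a6), read in undifferentiated mouse neural stem cells. The assay was ATAC-seq: a transposase inserts sequencing adapters where DNA is open. Their peaks were taken by position alone: a peak belonged to a gene when its summit lay in the gene or within 5 kb of it in the RefSeq gene table of GRCm38. This gave 306 of the 423900 peaks in the 4 deposited lists, namely 91 of 130103 for control and 74 of 104316 for deleted females, and 77 of 101322 for control and 64 of 88159 for deleted males. Peaks that overlapped between lists were merged into 105 regions.

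The neural stem cell lines were of the C57BL/6 strain and came from E14.5 embryos with floxed Smchd1, the gene of a protein that keeps chromatin silent, on the inactive X chromosome among other places. All 10 libraries carry the same protocol text, in which cells received a retrovirus with Cre and a puromycin resistance gene, were selected from 24 h and were harvested at 7 days. The labels do not say whether the fl/fl controls received a virus. The groups were Smchd1 fl/fl (control) and Smchd1 del/del (deleted) lines, with 3 libraries each in females and 2 each in males, sexed by title and sex field, although the free-text description calls the male libraries female too. The authors pooled the libraries of a group and called peaks once, so values below have no replicate error and no difference between groups could be tested. Depth was 144613215 tags for control and 139318421 for deleted females, and 91734730 for control and 74674218 for deleted males. Because the lists differ in length, peaks were ranked by the authors' −log10 q (rank 1 is the strongest) and counted among the 88159 strongest of each list unless the deposited list is named. That limit reached a −log10 q of 6.59 for control females, 4.27 for deleted females, 4.52 for control males and 1.39 for deleted males, the order used for all sets of 4 values below, so within a sex the weakest peaks of the deleted list rest on less signal.

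Neural stem cells divide and can become neurons, astrocytes or oligodendrocytes, and most genes of mature neurons are little used before they leave the cell cycle. One well-known brake is REST, a repressor that binds a DNA element at many neuron genes and recruits co-repressors in cells that are not neurons. Starts of transcribed genes are usually open, but openness does not measure transcription, and RNA was not measured in the libraries used here. A start without a called peak therefore does not show that a gene is silent. The assay also reads many cells at once, so a site open in fewer cells and a site less open in each cell cannot be told apart.

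The starts of the 9 genes ran from strong peaks to none, and the letters before each start are shown beside their peaks. The RefSeq promoter table of GRCm38.p6 held 7 of the 9 genes, with 9 starts; Snap25 and Stmn2 were matched by gene ends only. The sequences below are the 250 bases before the start, 5′ to 3′, with each CG dinucleotide in capitals. They were chosen to run from the strongest start to starts with no peak within 1 kb among the 88159 strongest peaks of any list.
Map2 (chr1:66175079-66175328, plus strand): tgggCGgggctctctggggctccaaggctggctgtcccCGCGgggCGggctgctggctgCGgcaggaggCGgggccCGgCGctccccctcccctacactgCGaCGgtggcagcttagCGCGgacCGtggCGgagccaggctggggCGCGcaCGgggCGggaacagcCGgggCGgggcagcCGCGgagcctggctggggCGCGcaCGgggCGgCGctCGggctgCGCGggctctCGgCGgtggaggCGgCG
Tubb3 (chr8:123411303-123411552, plus strand): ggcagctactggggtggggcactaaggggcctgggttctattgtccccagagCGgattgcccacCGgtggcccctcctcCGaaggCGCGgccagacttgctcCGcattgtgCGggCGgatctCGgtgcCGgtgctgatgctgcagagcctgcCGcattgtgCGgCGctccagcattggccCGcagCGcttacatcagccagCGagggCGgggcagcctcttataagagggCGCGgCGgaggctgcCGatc
Slc17a6 (chr7:51621580-51621829, plus strand): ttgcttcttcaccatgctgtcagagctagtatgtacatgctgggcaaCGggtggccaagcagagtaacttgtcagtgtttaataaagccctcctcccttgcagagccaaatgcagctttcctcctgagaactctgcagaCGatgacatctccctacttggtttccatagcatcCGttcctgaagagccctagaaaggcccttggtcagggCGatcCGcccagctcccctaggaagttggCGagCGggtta
Dcx (chrX:143933220-143933469, minus strand): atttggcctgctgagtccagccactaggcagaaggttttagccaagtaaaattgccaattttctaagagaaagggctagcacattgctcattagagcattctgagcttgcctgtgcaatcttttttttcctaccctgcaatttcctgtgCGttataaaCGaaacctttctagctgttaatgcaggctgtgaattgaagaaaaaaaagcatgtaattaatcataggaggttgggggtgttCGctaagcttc
Rbfox3 (chr11:118761042-118761291, minus strand): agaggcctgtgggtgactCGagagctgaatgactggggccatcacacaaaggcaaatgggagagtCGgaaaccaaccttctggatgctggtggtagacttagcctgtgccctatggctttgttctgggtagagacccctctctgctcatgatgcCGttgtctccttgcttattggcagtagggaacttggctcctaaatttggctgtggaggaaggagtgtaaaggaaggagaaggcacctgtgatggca
The Map2 stretch held 34 CG dinucleotides, more than 96.5% of the 32807 promoter entries, and that of Tubb3 held 21, more than 83.7%. Neurod1 had 22 and Gad1 17. The first Slc17a6 start had 7, and both Dcx starts, the Rbfox3 start and the second Slc17a6 start had 3 each, against a median of 6 over all entries. The Rbfox3 start in the table lies far inside the gene, not at its upper end.

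Over the genome, promoters with more CG dinucleotides more often had a start peak, and 4 of the 5 member starts with a peak in control females ranked behind the median of their CG class. In control females 17.5% of coding-gene promoters with 0 to 4 CG dinucleotides had a start peak, meaning a summit within 1 kb, against 75.8% with 5 to 14, 96.7% with 15 to 24 and 97.6% with 25 or more. The median rank of the start peaks was 28729, 14487, 9580 and 9766 in that order. Among the members, all starts with 15 or more had a peak in every list. In control females those of Tubb3, Neurod1 and Gad1 ranked 35492, 36987 and 75854, behind the median of 9580 for promoters of 15 to 24 CG dinucleotides. Map2 alone, at rank 3615, was ahead of the median of its class. The Slc17a6 start with 7 ranked 34371 against 14487. CG number and openness are given as a description, with no test.

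**Figure D1:**
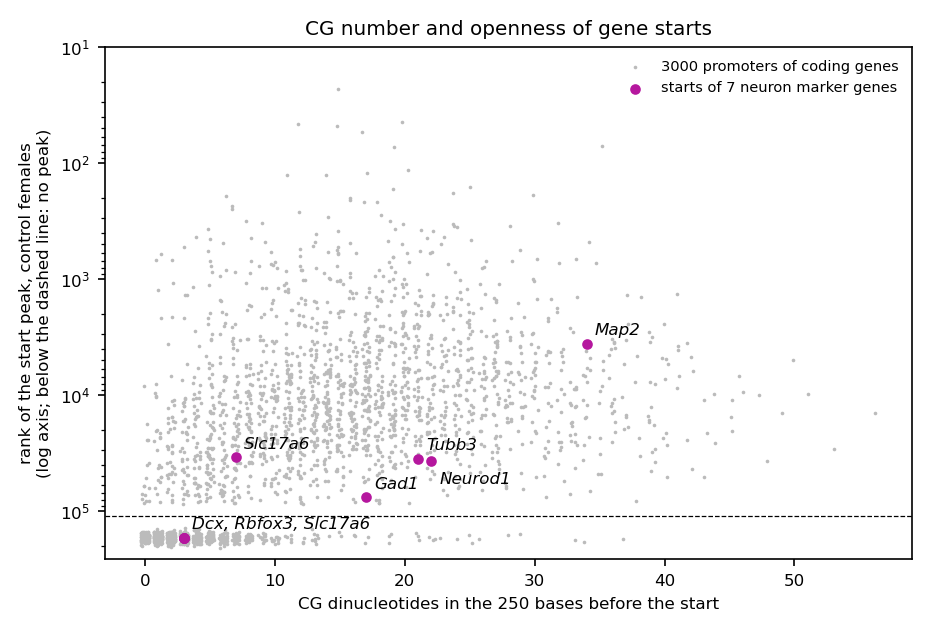
CG dinucleotides in the 250 bases before a start (x axis) and rank of the strongest peak within 1 kb of it in control females (y axis, log, strongest at the top, no peak below the dashed line), for 3000 promoters of coding genes drawn at random (grey) and the 9 starts of 7 neuron marker genes (magenta). Map2 lies among the strong CG-rich starts at rank 3615, Tubb3, Neurod1 and Gad1 lie at the weak edge of theirs, and the starts with 3 CG dinucleotides have no peak.

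Short motifs were searched on both strands of the same 250 bases: the E-boxes CAGCTG and CAGATG, bound by proneural factors, the GC box GGGCGG, the TATA box TATAAA, the core of the REST element and the palindromic NFI element. The GC box occurred in 32.7% of all promoter entries and, among the members, 5 times before Map2, 4 times before Neurod1, 2 times before Tubb3 and 1 time before Gad1 and the first Slc17a6 start. TATAAA, found in 12.4% of entries, occurred before both Dcx starts, whose windows overlap, and before Gad1. CAGATG (14.5% of entries) was present only before the second Slc17a6 start, and CAGCTG (13.0%) before none of the 9 starts. The REST core (0.0457% of entries) and the NFI element (0.0366%) had no match there, which says only that these letters are not in these windows.

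Of the 9 genes, 6 had a start peak in control females, where 64.8% of the 21883 protein-coding genes had one. The other lists had 7 of 9 each, against shares over coding genes of 65.5% for deleted females, 64.6% for control males and 65.2% for deleted males. Map2 and Snap25 were the only members with a start peak among the 8815 strongest peaks, and were so in all 4 lists. Dcx and Rbfox3 had none in any list, and Stmn2 had one in every list but control females. The only Rbfox3 start used, at 118761041, lies far inside the gene, so its result does not describe the upper end of this minus-strand gene. The starts used come from tables, and a gene can start elsewhere: Ywhaz, a signalling adaptor read in every tissue, had no start peak in any list either.

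Other gene lists set the scale for these shares. Start peaks were found at 13 to 14 of 15 neural stem cell markers, led by Sox9 and Egfr at ranks 9781 and 10629 in control females, while Pax6 had none at the start used. Of 41 other neuron genes, 31 to 33 had a start peak. They ranged from Syt1, the calcium sensor of transmitter release, at rank 749 in control females, and Elavl4, an RNA-binding protein of neurons, at 2353, to Chat and Mapt, which had none in any list. All 8 genes for REST and its partners had a start peak in every list, with the co-repressor genes Rcor1 and Hdac2 at ranks 2871 and 6807 in control females. Housekeeping genes had 10 to 11 of 12, led by Pgk1 and Hprt in control females. The Pgk1 start ranked 2481, 274, 1109 and 56 and was far stronger in both deleted lists, while Hprt ranked 3185, 7257, 4420 and 7757. The cause of the Pgk1 difference was not tested. Markers of other cells that a culture might hold gave these counts: 4 of 7 astrocyte markers (none at Aqp4 and Gfap), 6 to 7 of 10 oligodendrocyte markers (none at Mag and Mog), 1 of 8 microglia and blood markers (P2ry12 alone), 1 to 3 of 6 endothelial markers (none at Pecam1 and Tek) and 4 of 7 fibroblast markers (none at Col3a1 and Fap). Of 12 genes of heart, muscle and liver, tissues that were not cultured, 0 to 1 had a start peak, though 4 to 6 had a peak at either gene end. The lists are short and were not tested against each other.

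**Figure D2:**
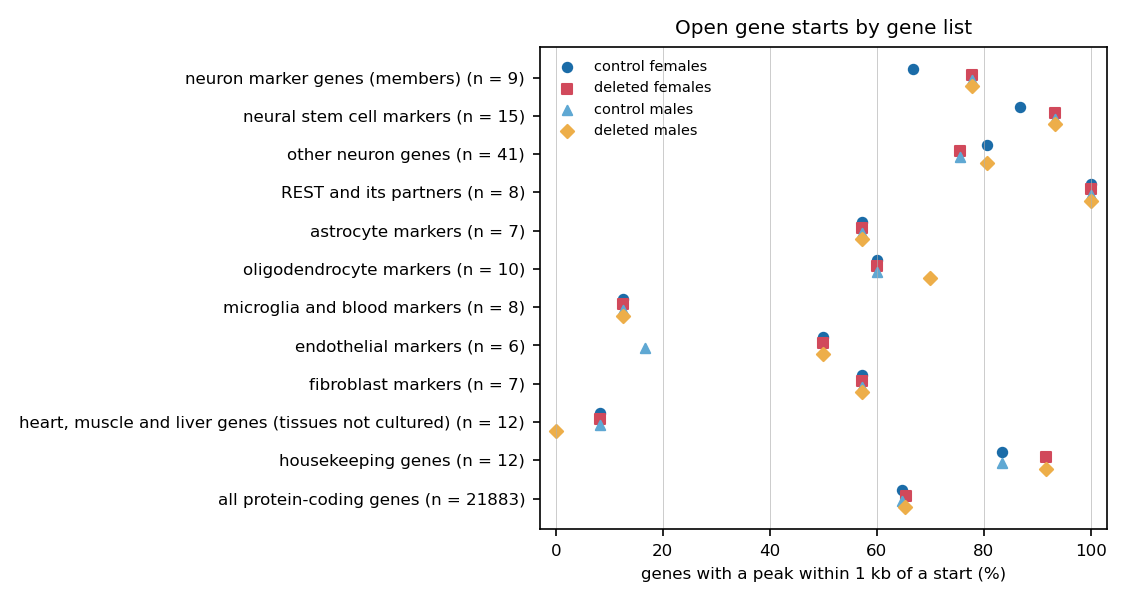
Share of the genes of each list with a peak summit within 1 kb of a start (x axis, %), in the 4 lists of equal length (symbols). The 9 neuron marker genes lie at 66.7% to 77.8%, near all protein-coding genes at 64.6% to 65.5% and the other neuron genes at 75.6% to 80.5%. The genes of heart, muscle and liver lie at 0 to 8.33% and the neural stem cell markers at 86.7% to 93.3%.

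Among the cytoskeletal genes Map2, which encodes a microtubule-binding protein of dendrites, was the most open. It lies on chromosome 1 from 66175202 to 66442583 and held 28 regions, of which 13 were in all 4 lists. Its start peak, from 66174861 to 66175716, ranked 3615 and 5251 in control and deleted females and 3849 and 4495 in control and deleted males. In control females only 11.9% of coding genes had a stronger start peak. A peak inside the gene, 212 kb from the start, was stronger still in all 4 lists, with ranks of 3166, 3859, 3284 and 3655. The authors' fold enrichment over the local background, which is read within a list, was 10.3, 9.28, 11.9 and 12.2 there and 7.43, 6.84, 8.79 and 8.97 at the start. All 4 lists placed both Map2 sites among their 8815 strongest peaks. By rank the control list was ahead of the deleted list of the same sex at both sites, while in males fold enrichment was the higher in the deleted list.

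Tubb3 encodes a tubulin of early neurons and lies on chromosome 8 from 123411553 to 123422015. Its start peak ranked 35492 and 35182 in control and deleted females and 23632 and 38424 in control and deleted males. Control males stood apart from the other 3 lists. A peak 1.26 kb before the start ranked 57296, 47765, 48489 and 38498, and its summit lies in the neighbouring gene Mc1r, a melanocyte receptor gene. A peak 11.1 kb after the start, outside the gene, ranked 43827, 57793, 47553 and 38679. No peak of the equal-length lists lay inside Tubb3 beyond its start, and the deposited lists had 2 there, both weak and both in control females.

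Dcx, an X-linked gene for a microtubule-binding protein of migrating young neurons, had the reverse arrangement: a start with almost no signal and an open interior. It lies on chromosome X from 143855842 to 143933396. At its starts the control female list as deposited held a weak peak of rank 120280 with a fold enrichment of 2.38 and a pileup of 29.0 tags, and the other 3 deposited lists held none. Inside, 26.3 kb from the start, a peak ranked 7674 and 5831 in control and deleted females and 11126 and 12275 in control and deleted males. Both female lists ranked it ahead of both male lists. Peaks at 30.6 kb and 51.0 kb were also in all 4 lists, the former with ranks of 21744, 19132, 20692 and 32139 and the latter with 30754, 25760, 25175 and 38116. At neither were both female lists ahead of both male lists. Female cells carry 2 copies of X, and the difference between the sexes was not tested.

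Stmn2, which encodes a tubulin-destabilizing protein of growing axons, was the least open member. It spans 8509527 to 8561604 on chromosome 3 and had only 2 regions, 1 at its lower-numbered end and 1 from 8511080 to 8511759, inside the gene near that end. The peak at that end ranked 100660 and 82419 in the deposited control and deleted female lists and 83893 and 69801 in those of males. In the inner region a peak 1.69 kb from that end ranked 59988 and 62452 in control and deleted females and 72932 in control males. The peak of deleted males there, from 8511440 to 8511756 and of rank 83733, did not overlap that of control males. No list held a peak in the remaining gene body. Over the 4 lists its pileup never passed 46.0 tags, against 91.0 to 129 at the inner Map2 peak.

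**Figure D3:**
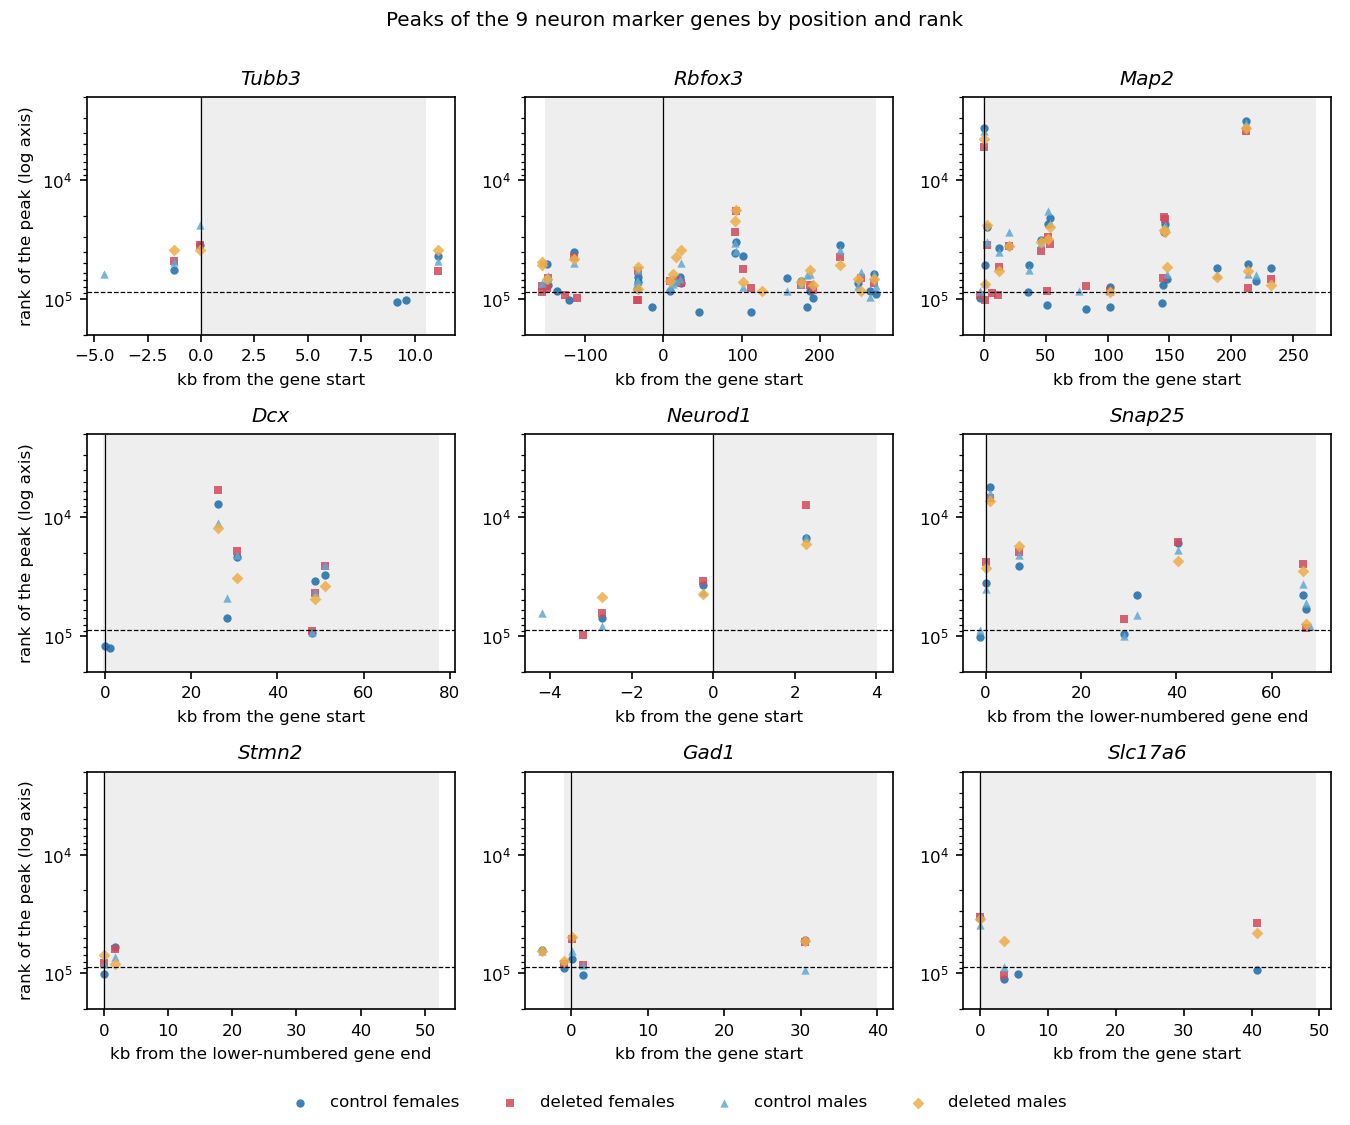
Position of each region's best-ranked summit (x axis, kb from the gene start, or from the lower-numbered end for Snap25 and Stmn2) and its rank in each deposited list (y axis, log, strongest at the top) for the 9 genes. Grey spans are the genes and the dashed line is rank 88159. Map2 has strong peaks at its start and 212 kb inside, Dcx has its strong peaks only inside, and Stmn2 has weak peaks near 1 end.

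The regulators of RNA and transcription were Rbfox3, whose product NeuN is a splicing factor of mature neurons, and Neurod1, a transcription factor of newborn neurons. Rbfox3 is the longest member, on chromosome 11 from 118489760 to 118911597, and held 37 regions. Only 14 of them were in all 4 lists. Its peaks were weak: the median rank was 70980, 70055, 67999 and 64319, where the median of any list is 44080. Its strongest site in both deleted lists, 92.9 kb from the start used here, ranked 33015 and 18244 in control and deleted females and 39470 and 17661 in control and deleted males. A neighbouring peak at 91.0 kb ranked 41408 and 27562 in females and 33638 and 21892 in males. At both sites each deleted list ranked the peak ahead of the control list of the same sex. Near the upper end of the gene, in a broad region from 118909044 to 118909997, the strongest peak of each list ranked 51268, 81013, 68148 and 68084. The deposited lists held 3 peaks of deleted females and 2 of deleted males there, and the strongest of each did not overlap each other.

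Neurod1 is a short gene of 4.0 kb on chromosome 2, from 79452637 to 79456636. Its strongest peak lay inside it, 2.28 kb from the start, and ranked 14940 and 7895 in control and deleted females and 14493 and 16615 in control and deleted males. Deleted females stood ahead, and the other 3 lists were close to each other. The start peak ranked 36987, 34280, 42528 and 44379, so in every list the interior was more open than the start. A peak 2.71 kb before the start was in all 4 lists as well, at ranks from 47040 to 81593.

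Snap25, a membrane fusion protein of synaptic vesicle release, had an open end. The gene table gives it no strand, and it lies on chromosome 2 from 136713439 to 136782428. A peak 0.832 kb from its lower-numbered end ranked 5536, 6850, 6259 and 7215, and a weaker peak at that end ranked 35801, 23722, 40043 and 26752. Both summits also lie in the noncoding gene Gm32659, so they cannot be given to Snap25 alone. Of its 10 regions 6 were in all 4 lists, including a peak 7.0 kb from that end at ranks of 17570 to 25774.

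Gad1 and Slc17a6 set the transmitter of a neuron: Gad1 makes GABA, and Slc17a6 (VGLUT2) loads glutamate into vesicles. Gad1, on chromosome 2 from 70561303 to 70602014, had a weak start peak of rank 75854 and 51124 in control and deleted females and 64676 and 49573 in control and deleted males. Both deleted lists ranked it ahead of both control lists, by less than 2-fold in either sex. Its summit also lies in Gad1os, an antisense gene. Slc17a6, on chromosome 7 from 51621830 to 51671126, had a start peak of rank 34371, 33679, 39308 and 34824, whose summit also lies in the gene Gm33136. It had 1 peak in each equal-length control list, 2 in deleted females and 3 in deleted males.

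The peak that set the Slc17a6 lists apart lay inside the gene, 38.0 kb from its second start, from 51662503 to 51662786. It ranked 37496 in deleted females, with a fold enrichment of 4.27 and a pileup of 51.0 tags, and 45777 in deleted males, with 4.58 and 31.0. The deposited control female list held it at rank 92899, with 2.86 and 35.0 tags, and the deposited control male list had no peak there. A second site, 0.758 kb from the second start, ranked 53347 in deleted males and 110751, 104233 and 88256 in control females, deleted females and control males. It was present in each deposited list and among the 88159 strongest of deleted males alone.

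The main comparison asked whether Smchd1 deletion changed the openness of these genes, in females and in males. Lost peaks were those within the top 44079 of the control list that touched no peak within the top 88159 of the deleted list. Gained peaks were defined the other way round. In females 0 of 28 member peaks were lost, where 0.44% of all candidate peaks were, and 1 of 26 was gained, where 1.13% were. The gained peak was the one inside Slc17a6. It was not called with all peaks as deposited or with ranking by pileup. With lists of the 44079 strongest peaks it could not be called, because the candidate limit was lowered with the list length to a rank ahead of its 37496. In males 0 of 26 member peaks were lost, against 1.09% of all candidates, and 0 of 25 were gained, against 0.837%. The Slc17a6 peak of deleted males, at rank 45777, lay just outside the 44079 candidates. With 25 to 28 candidates, each of these background shares amounts to less than 1 peak.

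Control females had 64 peaks in the 9 genes and deleted females 61. The log2 ratio was -0.07, with a 95% exact binomial interval from -0.60 to 0.46. In males they were 71 and 64, a log2 ratio of -0.15 (-0.66 to 0.36). The intervals cover counting error only and treat the lists as independent, although they share most peaks. By gene, deleted minus control was -4 for Map2, -2 for Rbfox3 and -1 for Dcx in each sex. It was 1 for Gad1 in each sex and 1 and 2 for Slc17a6 in females and males. Neurod1 had the same number in control and deleted lists of either sex. Tubb3 (0 and -1), Snap25 (0 and -2) and Stmn2 (2 and 0) differed in 1 sex only. No gene moved up in females and down in males or the reverse in these equal-length lists. The longer deposited lists gave another picture for the genes with more peaks after deletion. Gad1 fell from 5 peaks in control females to 4 in deleted females, while both male lists held 4. Slc17a6 fell from 4 to 3 between the female lists but rose from 2 to 3 between the male lists. Stmn2 had 3 in either female list. Map2, Rbfox3 and Dcx stayed lower in the deleted list of each sex.

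**Figure D4:**
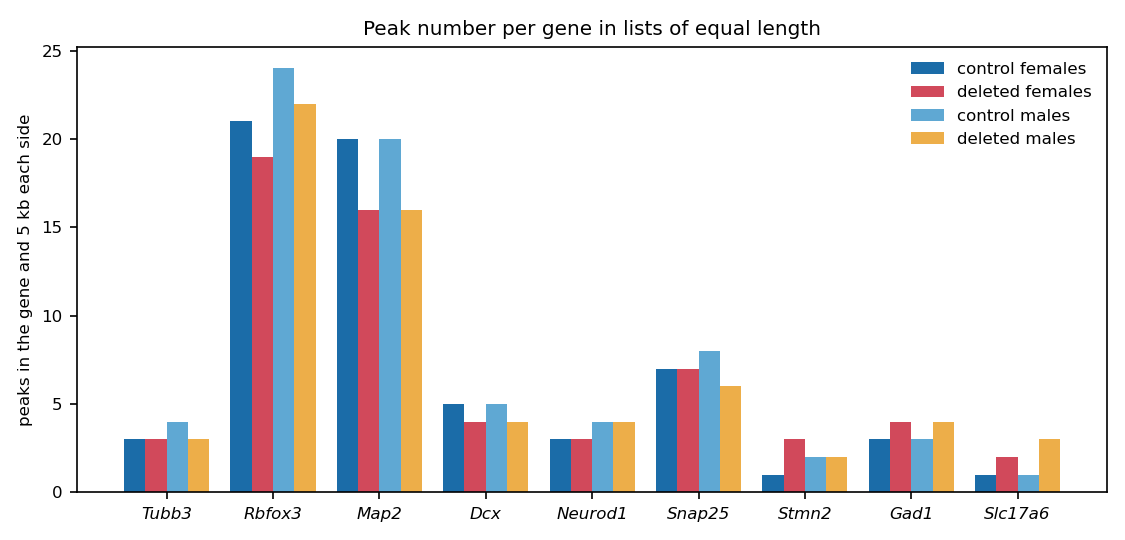
Number of peaks (y axis) in each gene and 5 kb on each side among the 88159 strongest peaks of each list (bars, 1 list per group, no error bars because there are no replicate lists). Rbfox3 with 19 to 24 and Map2 with 16 to 20 hold most of the peaks, and Stmn2 and Slc17a6 hold 1 to 3.

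Few member peaks present in both lists of a sex moved at least 2-fold in rank, and the shares over all shared peaks also amount to few peaks at these numbers. Of 48 shared member peaks in females, 0 ranked at least 2-fold better in the deleted list and 0 at least 2-fold worse, against 2.77% and 1.83% of all shared peaks. Of 53 in males, 1 ranked at least 2-fold better, against 2.71%, and 0 at least 2-fold worse, against 2.38%. The peak ranked better in males was the Rbfox3 site 92.9 kb from the start, at 39470 in control and 17661 in deleted males. In females it went from 33015 to 18244, a ratio of 1.81, which is short of 2-fold. The inner Neurod1 peak came closest in females, with a ratio of 1.89, while in males its deleted rank was the worse. None of the 44 member peaks shared by all 4 lists moved at least 2-fold in both sexes in the same direction, against 0.649% for better and 0.338% for worse ranks over all peaks.

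Lists of the same genotype give a measure of such shifts between the sexes. The median absolute log2 ratio of ranks over member peaks was 0.30 between deleted and control females and 0.22 between deleted and control males. It was 0.20 between control females and control males and 0.23 between deleted females and deleted males. Over all shared peaks the same 4 values were 0.28, 0.30, 0.24 and 0.28. Between the control lists 0 of 58 member peaks differed at least 2-fold in rank, against 2.41% of all shared peaks. Between the deleted lists the log2 ratios of male to female rank ran from -0.91 to 1.07 over 53 member peaks. The highest, past 2-fold, was that of the Dcx peak 26.3 kb from the start (5831 in females, 12275 in males). The share of all shared peaks past 2-fold was not computed between the deleted lists, so this peak cannot be set against it. These comparisons share lists with each other and are set side by side only.

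**Figure D5:**
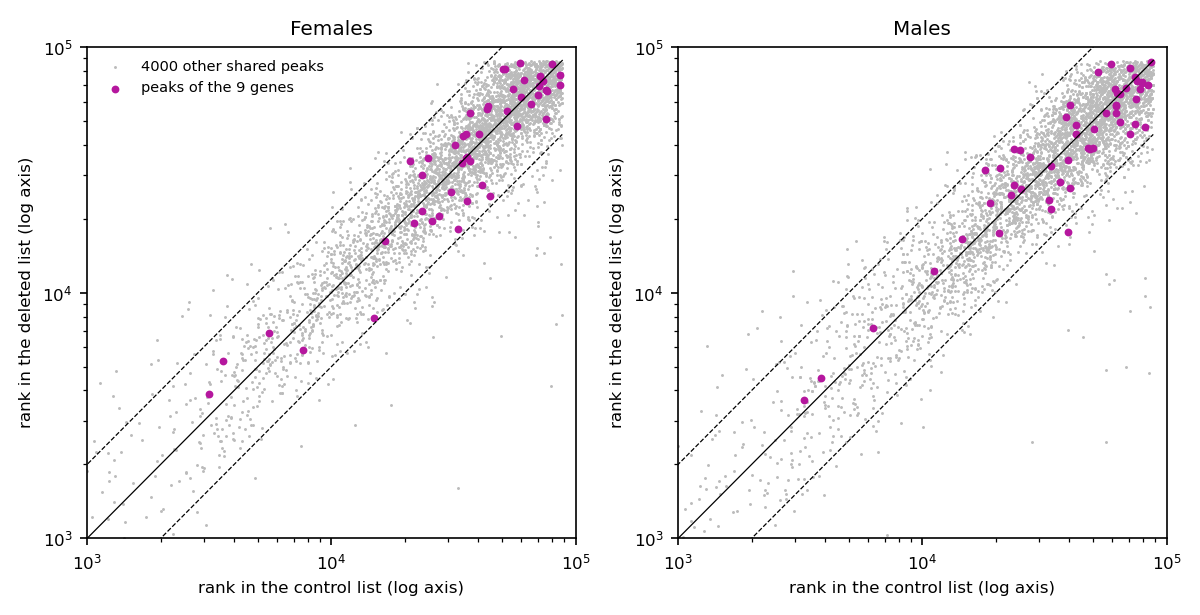
Rank of shared peaks in the control list (x axis, log) and in the deleted list (y axis, log) for females (left) and males (right), with the peaks of the 9 genes in magenta and 4000 other shared peaks drawn at random in grey. The strongest ranks, where no member lies, are not shown. Dashed lines mark a 2-fold difference in rank, and of the members only 1 of 53 in males lies beyond them.

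Counts of absent peaks were larger when weak peaks were included. Without the margin in strength, 16 of 64 control female peaks of the members overlapped none in the deleted list (16.9% of all peaks did so), and 18 of 71 in males (18.7%). In the reverse direction 11 of 61 deleted female peaks overlapped none of the control list (15.3% of all peaks), and 8 of 64 in males (16.9%). Of 58 control peaks shared by both sexes, 7 were absent from both deleted lists, where the share over all peaks was 5.6%. All 7 were outside the 44079 strongest peaks in both control lists. Among such weak control peaks the members' count was 7 of 29 and the background share 14.6%.

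The 7 sites lay inside genes: 3 in Rbfox3, 2 in Map2, and 1 each in Dcx and Snap25. The Snap25 site, 31.7 kb from the lower-numbered end, ranked 44789 in control females and 66214 in control males. The Map2 sites at 36.3 kb and 220 kb ranked 52012 and 57067, and 71132 and 62392. The Dcx site at 28.2 kb ranked 69915 and 47627. None of the 7 had a peak in the deposited deleted lists either, which were called at lower depth than the control lists of the same sex. In the other direction 3 of 53 deleted peaks were absent from both control lists, against 4.26% of all peaks: the inner Slc17a6 peak, a peak 0.924 kb before the Gad1 start (listed in the deposited control female list at rank 89504), and a peak inside Stmn2. The Stmn2 call rests on the deleted female peak of rank 75084. The deleted male peak that it overlaps, of rank 83733, also overlaps a control female peak of rank 59988. The deposited control female list held 2 peaks in that region.

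Over the 105 merged regions of the deposited lists, 49 were in all 4 lists (46.7%, against 45.5% of the 150516 regions of the genome), and 24 were in 1 list only (22.9%, against 29.8%). By place, 80 regions lay inside the genes, 13 at a start and 12 in the flanks. Of the start regions 10 were in all 4 lists, of those inside 36 and of those in the flanks 3. The summits of 14 regions also lay in another gene. Peak density over the genes and flanks was 0.59, 0.56, 0.66 and 0.59 per 10 kb, where all coding genes had 0.51, 0.50, 0.50 and 0.51. The neural stem cell markers, which are shorter, had 0.93, 0.99, 1.06 and 1.14.

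Each member was also matched to the gene of the 41 other neuron genes whose strongest peak had the most similar rank over the 4 lists, by the mean absolute difference in percentile of rank. Of these, 40 had a peak in every list. The closest pair was Map2 and Celf4, a splicing regulator of neurons, with a difference of 0.60 percentile points. Snap25 and Dcx were both closest to Neurod6, a transcription factor of cortical neurons, with 1.25 and 3.59 points. Slc17a6 was closest to Stmn4 (1.73), Neurod1 to Gap43 (2.38), Tubb3 to Th (2.50), Gad1 to Elavl3 (5.23) and Rbfox3 to Eomes (5.32). Stmn2 had no close counterpart: its nearest, Neurod2, differed by 10.03 points.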

How the data were processed

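ATAC-seq peak lists of 4 groups were used, each called by the authors with MACS 2.1.0.20140616 on 1 pooled alignment without a control sample, per the file headers. Per the submitters' processing notes, the build was mm10, and the tools named there are MACS2, edgeR, Picard, SAMtools, Bowtie2 2.2.5, Trim Galore 0.4.0 and bcl2fastq. Pileup is a signal height in tags that the authors deposited with each peak. Fold enrichment is the authors' deposited ratio over the local background. The deposited −log10 q ranked the peaks, and the deposited −log10 p broke ties, then fold enrichment, pileup and position.

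Peaks off the autosomes, X and Y were dropped, and each list was reduced to its 88159 strongest, the length of the shortest. Overlap meant 1 shared base pair. A gene was its body and 5 kb on each side. A start was that of the RefSeq promoter table of GRCm38.p6, the sequence build of mm10, or, without an entry, either gene end of the RefSeq gene table, which gives no strand. A start peak had its summit within 1 kb. Motif and CG counts used the 250 bases before each start.

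With 1 list per group there was no test and no p-value. The 9 genes and the other gene lists were chosen with earlier results of these data known. All 9 members are named. Of each other list the text names up to 4 genes: the 2 with the strongest start peak in control females and the first 2 of the alphabet with none in any list. Single peaks are named where they are a member's strongest or start peak or changed, and peaks named beyond this, those absent from both deleted lists among them, were chosen after their values were seen. The alternatives were list length, ranking value, flank, start window, overlap and margin. The code for the calls was run on a copy of the control female list with strong peaks removed, added or moved in rank. That copy kept the positions and depth of the original. It therefore checks only the code and does not measure false calls between the real lists. Scripts ran in Python 3.11.15 with matplotlib 3.10.9, scipy 1.17.1, numpy 2.4.6 and pandas 2.3.3.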

Additional observations from a re-analysis of the deposited data

How the results depend on the processing

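The log2 ratio of peak numbers stayed below 0 in all 6 alternatives in each sex, from -0.30 to -0.02 in females and from -0.27 to -0.06 in males, within the counting intervals. The lowest values came from the lists as deposited, where the ratio over all peaks was -0.32 in females and -0.20 in males. The higher peak numbers of Gad1, Stmn2 and Slc17a6 in deleted females were not seen in the deposited lists. The Slc17a6 peak gained in females gave 1 call, and the count was 0 with all peaks as deposited, 0 with the strongest 44079 peaks of each list and 0 with ranking by pileup. With the strongest 44079 peaks the candidate limit was lowered too, so the Slc17a6 peak was no candidate there. Without the margin the lost or gained peaks numbered 27 in females and 26 in males, and with ranking by fold enrichment 2 in males. Shared peaks moved at least 2-fold in rank numbered 1 in females and 2 in males with ranking by pileup, and 3 in females with ranking by fold enrichment. Shares of lost, gained or moved peaks over all peaks were computed only for the main setting and without the margin. The counts under the other settings therefore cannot be set against all peaks and are not read as results about the members. Among the strongest 44079 peaks, members with a start peak numbered 4 in deleted males and 5 in each other list. These counts are 44.4% of the members in deleted males and 55.6% in each other list. The shares over all coding genes were 57.7%, 57.6%, 57.3% and 57.8%. In the deposited control female list 8 members had a start peak. The share over coding genes was not computed for that longer list, so its 8 is not read as a result about the members. The cause of the differences in these counts between lists was not tested. Rank shifts were not run on the lists as deposited, whose lengths differ. The use of either gene end for every gene was chosen after seeing the data and gave the same 6, 7, 7 and 7 members. No paired analysis was possible because each list pools the libraries of its group. For the same reason no library could be left out. Deleted males had the fewest tags, and the part of depth in missing weak peaks was not tested.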
